A study of Mus musculus with 6 samples.

Results

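Transcripts of the JAK-STAT5 pathway and of its feedback inhibitors were described in BCR-ABL1+ mouse B cells that lacked or carried gamma-catenin. The set holds 10 genes out of 19938 measured: the SOCS family inhibitors Cish, Socs1, Socs2 and Socs3, the transcription factors Stat5a and Stat5b, the kinase gene Jak2, and the cytokine-induced genes Pim1, Pim2 and Osm. All 10 were chosen by name, and each was read from the probe set with 1 gene symbol that had the highest mean over all arrays. No filter on low values was applied. The knockout samples (KO) came from Jup-/- donors and the wild-type samples (WT) from Jup+/+ donors, both on the C57BL/6 background, with 3 arrays each. In both groups the donor was a chimera, a CD45.1+ mouse reconstituted for at least 8 weeks with CD45.2+ fetal liver of the named genotype. Its whole bone marrow was transduced with a BCR-ABL1 retrovirus that also encodes green fluorescent protein (GFP) and was then given to lethally irradiated CD45.1+ mice. At day 21 GFP+ B220+ BP-1+ CD45.2+ cells were sorted, a gate that keeps transduced B-lineage cells of donor type and leaves out those of both hosts. The labels call the samples biological replicates, and do not say whether each stands for 1 mouse or for a pool.

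Cytokine receptors carry Janus kinases, which phosphorylate STAT proteins once a ligand binds. Phosphorylated STAT5 forms dimers that enter the nucleus and bind DNA, and among their best known targets are genes of the SOCS family, whose products bind receptors or kinases and turn the signal down. In early B cells interleukin 7 is the main physiological input, whereas the fusion kinase BCR-ABL1 leads to STAT5 phosphorylation without a cytokine, and mouse BCR-ABL1+ B cell leukaemia is known to need STAT5. Transcript levels report neither phosphorylation nor protein.

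Array medians were between 7.53 and 7.61 on the log2 scale of RMA, the Affymetrix summary used for these values. Jup, the targeted gene, measured 7.04, 7.06 and 7.27 in KO, against 8.04, 7.62 and 8.51 in WT. The groups did not overlap, and Jup was 1.91-fold lower in KO (log2 difference -0.93, SE 0.20; limma, adjusted p = 0.171); whether its probes lie in the deleted part is not stated in the labels. The 9 measured B lineage markers lay above the array median on all 6 arrays, among them Cd79a, Cd79b, Ebf1 and Pax5. They include the gate genes Enpep and Ptprc, and because the cells were sorted on their products, these genes are no separate check of the label. Between the groups, Enpep, which encodes BP-1, was lower in KO (-0.23) and Ptprc, which encodes B220, higher (0.19), both without overlap and neither past the adjusted threshold. Granulocyte and monocyte markers moved with genotype: 16 of 18 were higher in KO, against 9641 of all 21789 probe sets. Mpo, Elane and Ctsg passed an adjusted p of 0.05 in limma, where 0.119% of all probe sets did. The summed level of these 18 markers on the linear scale was 10760.5 to 11529 in KO and 5596 to 8878 in WT. For the B lineage markers it was 69157 to 73194 in KO and 68788 to 70561 in WT. The T cell markers Cd3e, Cd3d and Cd3g lay below the array median on all 6 arrays. The 8 measured T and NK cell markers summed to 724 to 795 in KO and 722 to 900 in WT. Of them 3 had an unadjusted p under 0.05, which is 37.5% against 9.22% of all probe sets. These 3 were Nkg7 (0.49), Klrb1c (-0.79) and Cd8a (-0.22), of mixed sign. Klrb1c and Cd8a lay below the array median on all 6 arrays and Nkg7 on 5 of them, and Cd8a overlapped between the groups. Erythroid markers summed to 645 to 704 in KO and 562 to 635 in WT, and Car1, below the array median on all 6 arrays, was higher in KO (0.74; limma, adjusted p = 0.0307). WT replicate 2 was the array with high Y-linked and low Xist transcripts, so the sex of the fetal liver cells was uneven between the groups. In bulk RNA of sorted cells, fewer cells of a type and less RNA per cell cannot be told apart.

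Cish and Socs3 were the members with the largest differences, and both were lower in KO. Cish encodes CIS, which binds phosphorylated cytokine receptors and competes with STAT5 for them. It measured 10.19, 10.41 and 10.21 in the KO arrays, against 10.95, 10.81 and 10.61 in the WT arrays. Every KO array lay below every WT array. The means were 10.27 ± 0.12 in KO and 10.79 ± 0.17 in WT (SD, n = 3 each), so that Cish was 1.44-fold lower in KO. The log2 difference was -0.52 (SE 0.11, 95% interval -0.77 to -0.27), with an unadjusted p of 0.00117. It missed the threshold once adjusted over 21789 probe sets (limma, adjusted p = 0.166).

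Socs3 encodes an inhibitor that is recruited to receptors of the interleukin 6 type and blocks the kinases bound there. It measured 8.84, 8.99 and 9.15 in the KO arrays, against 10.17, 9.46 and 9.71 in the WT arrays. The groups did not overlap, and WT replicate 1 was the highest. The means were 8.99 ± 0.16 in KO and 9.78 ± 0.36 in WT (SD, n = 3 each), 1.72-fold lower in KO. The log2 difference of -0.79 (SE 0.17, 95% interval -1.18 to -0.39) had an unadjusted p of 0.00161 and missed the adjusted threshold as well (limma, adjusted p = 0.178). A second, dimmer Socs3 probe set also showed no overlap, at 7.11, 7.08 and 7.19 in KO and 7.34, 7.29 and 7.49 in WT. Its log2 difference was -0.25 (SE 0.08; limma, adjusted p = 0.402), smaller than that of the brighter probe set. The granulocyte and monocyte markers differed in the opposite direction in the same arrays, and their part in the values of Cish and Socs3 was not tested.

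STAT dimers typically bind the palindrome TTCNNNGAA, which reads the same on both strands. Because Cish and Socs3 were the members with an unadjusted p under 0.05, the sequence around their starts is shown, from RefSeq on GRCm38.p6, with matches to this motif in capitals. The Cish stretch is chr9:107296559-107296678 on the plus strand, from base -100 to base 20 relative to the annotated start, where base 1 is the first transcribed. The Socs3 stretch is chr11:117969467-117969566 on the minus strand, from base -200 to base -101. Both are printed 5′ to 3′.
Cish: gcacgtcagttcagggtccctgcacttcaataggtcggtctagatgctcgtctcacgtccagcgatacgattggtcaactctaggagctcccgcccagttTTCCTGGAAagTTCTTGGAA
Socs3: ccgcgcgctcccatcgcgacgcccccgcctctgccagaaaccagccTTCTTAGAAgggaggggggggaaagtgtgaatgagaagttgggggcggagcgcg
Cish held 2 matches at its start, at bases 1 to 9 and 12 to 20, and Socs3 held 1, at bases -154 to -146. Windows of 300 bases, from 250 before to 50 after a start, were on hand for 8 of the 10 members, those other than Socs2 and Osm. The windows of Socs1, Stat5a, Stat5b, Jak2, Pim1 and Pim2 held no match to these letters. At least 1 match stood in 8.30% of all 32851 such windows, and 2 or more stood in 0.457%. A match is a description of the sequence, and no binding was measured.

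Socs1 and Socs2, the other SOCS family members of the set, showed smaller differences, of opposite sign. Socs1, whose product inhibits Janus kinases directly, measured 9.77, 9.78 and 9.66 in KO, against 10.10, 10.01 and 9.58 in WT. The groups overlapped because WT replicate 3 lay below all KO arrays. Its log2 difference was -0.16 (SE 0.13, 95% interval -0.47 to 0.14; limma, adjusted p = 0.796), and it was -0.32 without WT replicate 3 and -0.06 without WT replicate 1. Socs2, known as a regulator of growth hormone signalling, measured 12.87, 12.82 and 12.94 in KO, against 12.90, 12.77 and 12.66 in WT. Its log2 difference was 0.10 (SE 0.09, 95% interval -0.10 to 0.30; limma, adjusted p = 0.811), and its second probe set gave 0.12 (SE 0.10). Leaving out WT replicate 3 gave 0.04 for Socs2, and leaving out WT replicate 1 gave 0.16. The interval of Socs2 thus leaves room for a rise of about 0.30 or a fall of about 0.10, while those of Cish and Socs3 lie wholly below 0. Averaged over the 4 SOCS family genes, each taken relative to its WT mean, the level was -0.39, -0.31 and -0.32 in KO and 0.22, -0.05 and -0.17 in WT, on the log2 scale. The WT arrays differed among themselves more than the KO arrays did, with WT replicate 1 the highest.

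**Figure D1:**
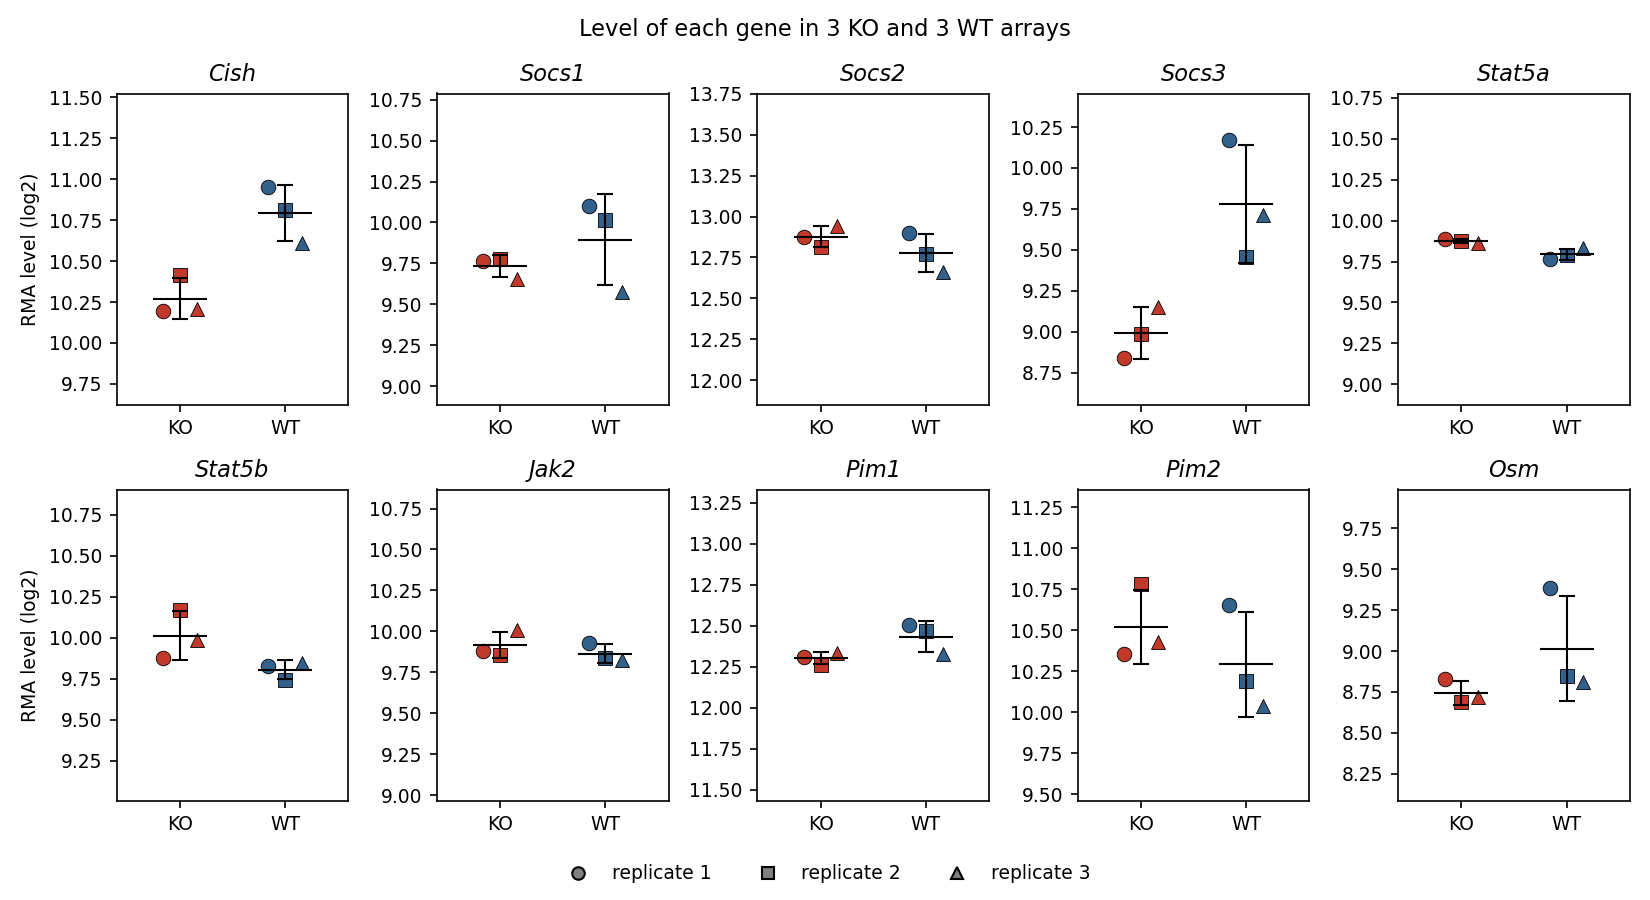
RMA level (log2) of the 10 genes in 3 KO (red, left) and 3 WT (blue, right) arrays, with a marker shape for each replicate number, a bar at the group mean and whiskers of 1 SD; every panel spans the same log2 range. KO and WT arrays are apart for Cish, Socs3, Stat5a and Stat5b, and overlap for the other 6 genes.

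The STAT5 genes were slightly higher in KO. Stat5b measured 9.88, 10.17 and 9.99 in the KO arrays, against 9.83, 9.74 and 9.84 in the WT arrays. The lowest KO array lay just above the highest WT array. Its log2 difference was 0.21 (SE 0.09, 95% interval -0.01 to 0.42; unadjusted p = 0.0549; limma, adjusted p = 0.563). Stat5a measured 9.89, 9.88 and 9.86 in KO, against 9.76, 9.79 and 9.83 in WT, again without overlap. The separation was small, at 0.08 on the log2 scale (SE 0.07, 95% interval -0.08 to 0.24; limma, adjusted p = 0.806). The fit shares its estimate of spread across probe sets, and its SE is larger than the SDs of Stat5a, which were 0.01 in KO and 0.03 in WT. Stat5a and Stat5b are adjacent genes, and both lie near the targeted gene: in RefSeq they are on chromosome 11 with Jup, with 18 protein-coding genes between Jup and Stat5b. A difference tied to that chromosomal stretch and one tied to the loss of Jup cannot be told apart in this design. Socs3, Osm and the cytokine gene Lif, described below, are also on chromosome 11 but farther from Jup. Between each of them and Jup lie 307, 1168 and 1167 protein-coding genes in turn. For these genes too, a difference tied to the chromosome and one tied to the loss of Jup cannot be told apart.

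Jak2, the kinase that couples many cytokine receptors to STAT5, measured 9.88, 9.86 and 10.01 in KO, against 9.93, 9.83 and 9.82 in WT. The groups overlapped, and the log2 difference was 0.05 (SE 0.08, 95% interval -0.13 to 0.23; limma, adjusted p = 0.914). At that level of confidence the data therefore bound a rise of Jak2 to about 0.23 and a fall to about 0.13 on the log2 scale.

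The Pim genes, which encode serine/threonine kinases that support survival of blood cells and are induced by STAT5, went in opposite directions without passing. Pim1 measured 12.31, 12.26 and 12.33 in KO, against 12.50, 12.47 and 12.33 in WT. WT replicate 3 lay among the KO arrays, and the log2 difference was -0.13 (SE 0.08, 95% interval -0.31 to 0.05; limma, adjusted p = 0.694). Pim2 measured 10.35, 10.78 and 10.43 in KO, against 10.65, 10.19 and 10.04 in WT. Its log2 difference of 0.23 (SE 0.17, 95% interval -0.16 to 0.62; limma, adjusted p = 0.772) depended on single arrays, at 0.41 without WT replicate 1 and 0.10 without KO replicate 2 or WT replicate 3.

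Osm encodes oncostatin M, a cytokine of the interleukin 6 family that is itself a STAT5 target in blood cells. It measured 8.83, 8.69 and 8.72 in KO, against 9.38, 8.85 and 8.81 in WT. The groups overlapped, and WT replicate 1 stood above the rest. The log2 difference was -0.27 (SE 0.15, 95% interval -0.61 to 0.07; limma, adjusted p = 0.652), and without WT replicate 1 it was -0.08.

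Over the 10 members, 5 had a higher and 5 a lower KO mean, with a median log2 difference of -0.04, against -0.02 over all probe sets tested. In limma 0 members passed at an adjusted p under 0.05 over all probe sets, where 0.119% of all probe sets did (0.0505% higher and 0.0688% lower in KO). At an unadjusted p under 0.05, 2 members were lower in KO (Cish and Socs3) and 0 were higher, against 4.73% and 4.48% of all probe sets. Without WT replicate 3 the lower members numbered 4, and without KO replicate 1 or WT replicate 1 there was 1 higher member. The arrays did not overlap for 4 members, 2 below and 2 above WT, against 14.0% of all probe sets (8.08% below and 5.94% above).

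**Figure D2:**
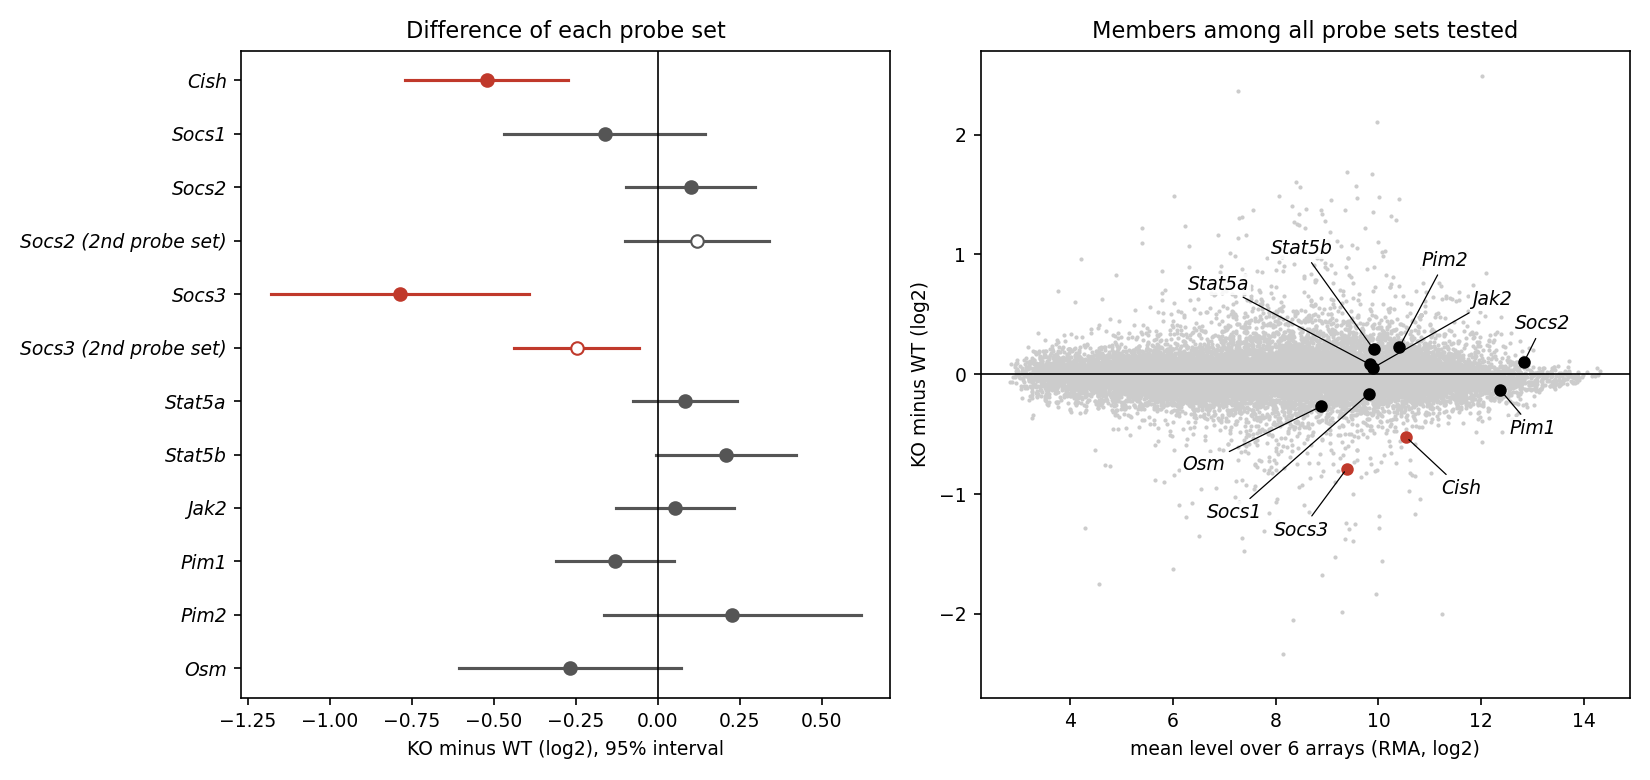
Left, KO minus WT (log2) with the 95% interval of the limma fit for the 12 probe sets of the 10 genes; open circles are second probe sets and red marks an unadjusted p under 0.05. Right, KO minus WT against the mean RMA level over 6 arrays, with all 21789 probe sets in grey; Cish (-0.52) and Socs3 (-0.79) are in red and the other members in black.

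Each array was left out in turn to see how far single samples carried these values. Cish stayed between -0.61 and -0.44 and Socs3 between -0.95 and -0.59, in each case smallest without WT replicate 1. Without WT replicate 2, the array of the other sex, Cish was at -0.51 and Socs3 at -0.95. All 10 members kept their sign with any 1 array left out, although Jak2 came to 0.01 without KO replicate 3. Stat5b was at 0.13 without KO replicate 2 and between 0.17 and 0.27 with other arrays left out.

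**Figure D3:**
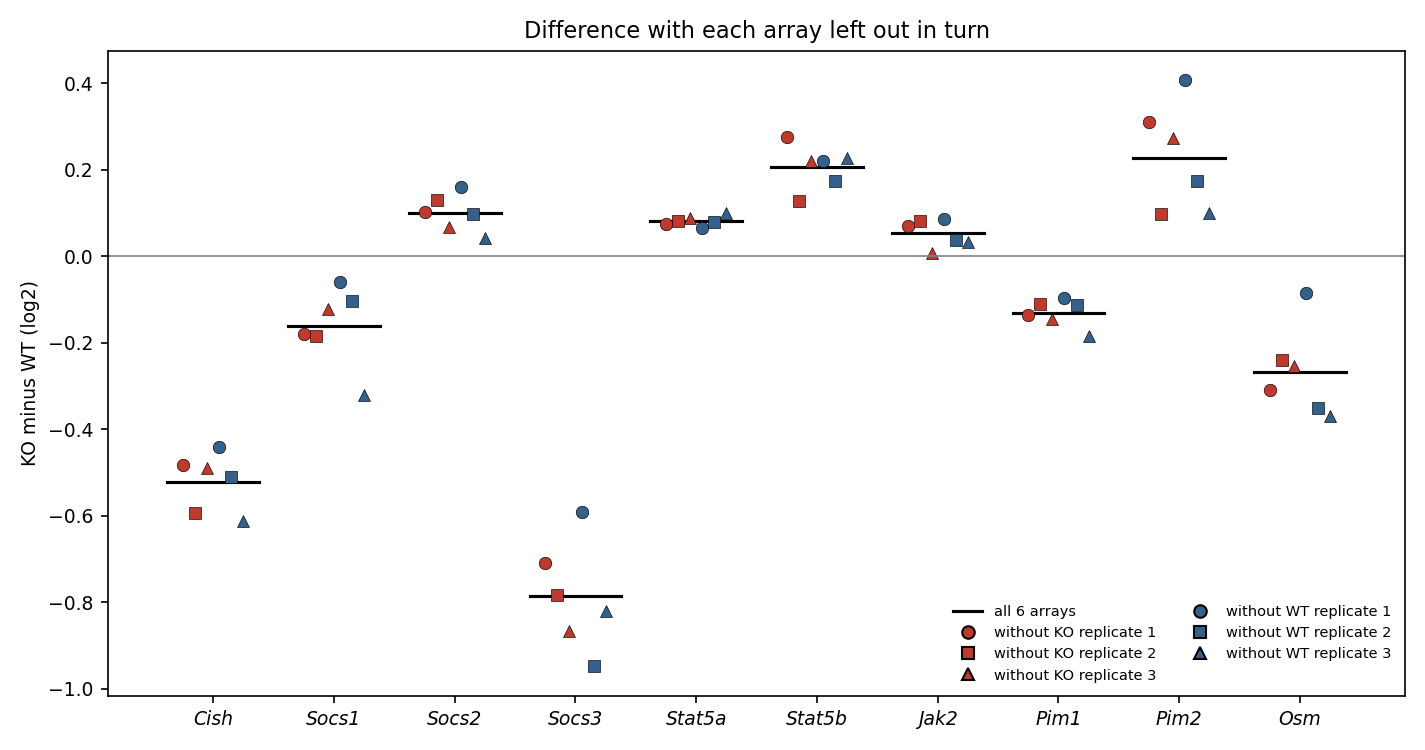
KO minus WT (log2) of each gene with all 6 arrays (black bar) and with 1 array left out (red for a KO array, blue for a WT array, shape by replicate number). Cish and Socs3 stay below -0.44 throughout, while Osm comes to -0.08 and Socs1 to -0.06 without WT replicate 1.

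The rest of the pathway was read from 7 further lists with 89 measured genes of 96, ordered by role. In limma 0 of them passed at an adjusted p under 0.05 over all probe sets, and 12 were higher and 7 lower in KO at an unadjusted p under 0.05, together 21.3% of the 89 against 9.22% of all probe sets. Without KO replicate 2 the number was 12 in all. The lists were not tested as sets.

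Among 25 measured cytokine receptor genes, 6 were higher in KO and 1 lower at an unadjusted p under 0.05, with a median log2 difference of 0.07. Together these were 28% of the list, against 9.22% of all probe sets. Lifr, the receptor subunit for leukaemia inhibitory factor that also pairs with gp130 for oncostatin M, measured 7.16, 7.46 and 7.26 in KO and 6.92, 6.70 and 6.22 in WT, and differed by 0.68 on the log2 scale (SE 0.17; limma, adjusted p = 0.257). It lay below the array median on all 6 arrays. Il4ra, the binding chain of the interleukin 4 receptor, measured 8.68, 8.99 and 9.003 in KO and 8.60, 8.33 and 8.39 in WT, and differed by 0.45 on that scale (SE 0.11; limma, adjusted p = 0.260). Neither gene overlapped between the groups. The other 4 higher receptors were Il6ra (0.39), Csf2rb2 (0.44), Il2ra (0.43) and Csf2rb (0.24), named because the count is small. Csf2rb and Csf2rb2 encode beta chains of the interleukin 3 receptor family, and Il2ra, the alpha chain of the interleukin 2 receptor, is a known STAT5 target. Several of these receptors are also expressed by myeloid cells, whose markers were higher in the same 3 KO arrays, and their part in these differences was not tested.

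Ifngr1, the binding chain of the interferon gamma receptor, was the 1 lower receptor gene. It measured 11.05, 10.89 and 10.90 in KO, against 11.40, 11.41 and 11.32 in WT. The groups were well apart, by -0.43 on the log2 scale (SE 0.08; limma, adjusted p = 0.123). Among the 14 alternatives it passed only with a trended and robust prior (adjusted p = 0.0449) and with array weights (adjusted p = 0.0421). Without KO replicate 2 the adjusted p of Ifngr1 in limma was 0.464. Osmr, the oncostatin M receptor chain, lay below the array median on all 6 arrays, at -0.18 for KO minus WT (SE 0.09). The receptor for interleukin 7 gave 0.11 (SE 0.15) for its alpha chain Il7r, at 11.66, 11.64 and 12.07 in KO and 11.59, 11.50 and 11.94 in WT, so the groups overlapped.

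Among 16 measured ligand genes, 1 was higher and 2 lower at an unadjusted p under 0.05, 18.75% against 9.22% of all probe sets. Lif, which encodes leukaemia inhibitory factor and is the direct chromosomal neighbour of Osm, measured 7.14, 6.74 and 6.82 in KO, against 8.13, 7.67 and 7.55 in WT. Every KO array lay below every WT array, and Lif was 1.85-fold lower in KO (log2 difference -0.88, SE 0.16; limma, adjusted p = 0.119). It lay below the array median on all 3 KO arrays and 1 WT array. Among the 14 alternatives Lif passed the threshold only with array weights (adjusted p = 0.0390) and with the replicate number as a block (adjusted p = 0.0452). Without KO replicate 2 the adjusted p of Lif in limma was 0.411. Its receptor gene Lifr differed the other way, and both Lif and Osm had their highest value in WT replicate 1. Il15, a cytokine that signals through the interleukin 2 receptor beta chain, measured 7.13, 7.76 and 7.57 in KO and 7.07, 6.97 and 6.41 in WT, 0.67 higher in KO on the log2 scale (SE 0.20; limma, adjusted p = 0.356), and lay below the array median on 5 of 6 arrays. Il21 lay below the array median on all 6 arrays, at -0.22 for KO minus WT (SE 0.09), and Il7, below the array median on the same arrays, gave 0.18 (SE 0.10).

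Of 6 other measured JAK and STAT genes 1 was lower at an unadjusted p under 0.05 and 0 were higher, 16.7% against 9.22% of all probe sets. The lower gene was Stat4, which mediates interleukin 12 signals in T and NK cells. It measured 11.74, 11.74 and 11.91 in KO, against 12.06, 12.25 and 12.03 in WT, without overlap, and KO minus WT was -0.32 (SE 0.09; limma, adjusted p = 0.330). Stat6, the factor of interleukin 4 signals, gave 0.15 (SE 0.08), Jak1 -0.08 (SE 0.08) and Tyk2 0.14 (SE 0.16). The sign of Tyk2 turned without WT replicate 3 (-0.0063).

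The 4 other SOCS genes gave 0 genes at an unadjusted p under 0.05, against 9.22% of all probe sets. Of these genes Socs6 and Socs7 are best known for roles outside cytokine feedback. The log2 differences of the 4 genes were 0.08 for Socs4, -0.12 for Socs5, -0.18 for Socs6 and 0.16 for Socs7, with SEs of 0.08 to 0.16. Single arrays moved them: Socs7 was 0.0046 without WT replicate 3 and 0.28 without WT replicate 1, and Socs4 was 0.02 without KO replicate 3. The sign of Socs5 turned without KO replicate 1 (0.022), and that of Socs6 with the mean of its probe sets (0.0041).

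Among 14 other inhibitors 2 were higher and 0 lower at an unadjusted p under 0.05, both of them phosphatase genes. They made up 14.3% of the list, against 9.22% of all probe sets. Ptpn6 encodes SHP-1, which dephosphorylates receptors and Janus kinases, and measured 10.61, 10.71 and 10.76 in KO, against 10.56, 10.29 and 10.45 in WT. The groups did not overlap, and KO minus WT was 0.26 (SE 0.09; limma, adjusted p = 0.437). Ptpn1 encodes PTP1B, a phosphatase of Jak2 and Tyk2, and gave 0.29 (SE 0.12; limma, adjusted p = 0.524) with 1 WT array inside the KO range. Ptpn2 (-0.11, SE 0.08) and Spred1 (-0.06, SE 0.08) had the lowest moderated t of the list.

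Among 14 further known STAT5 targets 2 were higher and 2 lower at an unadjusted p under 0.05, 28.6% against 9.22% of all probe sets. Bcl2, which blocks apoptosis, measured 9.61, 9.59 and 9.78 in KO, against 10.11, 10.09 and 10.24 in WT. Its groups did not overlap (log2 difference -0.49, SE 0.09; limma, adjusted p = 0.106), and it passed with array weights alone among the alternatives (adjusted p = 0.0467). Myc measured 11.91, 11.40 and 11.64 in KO, against 12.33, 12.01 and 12.05 in WT, and its KO minus WT value was -0.48 (SE 0.14; limma, adjusted p = 0.346). Ccnd2, the gene of cyclin D2, measured 12.35, 12.69 and 12.50 in KO, against 12.02, 11.84 and 11.13 in WT, and was 1.80-fold higher in KO (log2 difference 0.85, SE 0.21; limma, adjusted p = 0.253). Bcl6, a repressor gene that STAT5 is known to silence, gave 0.30 (SE 0.11; limma, adjusted p = 0.467), with overlap between the groups.

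Of 13 genes of the interleukin 6 family and STAT3 response, a list that shares Il4ra, Il6ra and Osmr with the receptors, 3 were higher and 1 lower at an unadjusted p under 0.05. Their share was 30.8% of the list, against 9.22% of all probe sets. The lower one was Tnfrsf1b, a receptor of tumour necrosis factor, at 9.40, 9.35 and 9.23 in KO and 9.73, 9.63 and 9.54 in WT (log2 difference -0.30, SE 0.09; limma, adjusted p = 0.318). Besides Il4ra and Il6ra the higher one was the transcription factor gene Junb (0.24, SE 0.09). Il6ra measured 7.70, 7.97 and 7.78 in KO, against 7.34, 7.37 and 7.57 in WT, without overlap. Genes counted as responses to this cytokine family thus stood on both sides of 0 while Socs3, a feedback gene of the same family, was lower in KO.

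**Figure D4:**
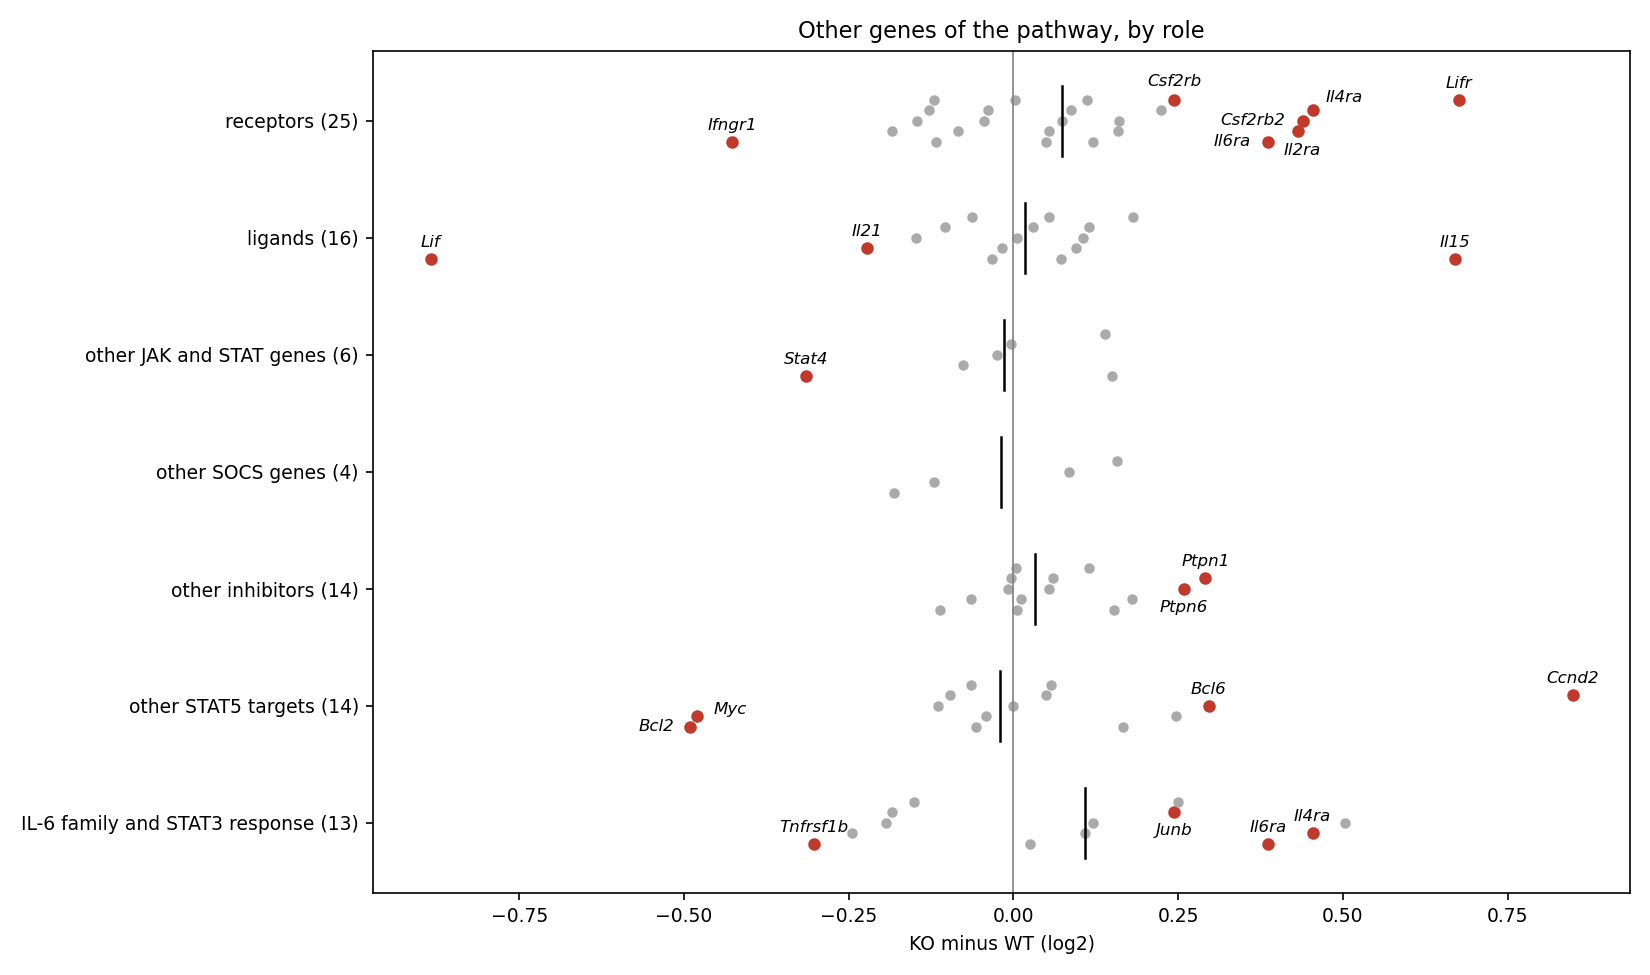
KO minus WT (log2) for the 89 measured genes of 7 lists by role, with the number measured in brackets; Il4ra, Il6ra and Osmr stand in 2 lists. Red points have an unadjusted p under 0.05 and are named, grey points do not, and the black bar is the list's median; Lif (-0.88) and Ccnd2 (0.85) lie at the 2 ends.

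The genes whose levels most resembled those of Cish and Socs3 across the 6 arrays were taken by Pearson's r among 17511 genes, which leave out predicted genes, Rik clones and olfactory and vomeronasal receptors. For Cish they were Crhbp (r = 0.991), Hrob (r = 0.991) and Cyth3 (r = 0.986), and for Socs3 Cyp2d22 (r = 0.992), Tada1 (r = 0.986) and Obp2b (r = 0.984). An r does not show the size of a difference: KO minus WT was -0.08 for Tada1 (SE 0.07) and -0.13 for Obp2b (SE 0.08). Obp2b lay below every array median, at 5.84 to 6.09. With so few arrays, which share genotype and processing, 28 genes exceeded an r of 0.95 with Cish and 45 with Socs3. Between the members, Cish and Socs3 had an r of 0.872, and the member most opposed to both was Stat5a, at -0.953 with Cish and -0.904 with Socs3. These values hold the genotype difference itself and are a description of 6 arrays.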

How the data were processed

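The deposited values are log2 signals per probe set of 1-colour Affymetrix whole-transcript arrays, made by the authors; the submitters' processing notes name RMA and Affymetrix Expression Console 1.1; 100 ng of total RNA went into each labelling, per the labels' protocols. RMA in its usual form removes shifts common to a whole array and compresses differences of dim transcripts. Of 35556 rows, 21789 with exactly 1 symbol in the platform annotation were tested; 1621 rows had several symbols and 12146 are unnamed here. No coordinates of array probes are given. KO was compared with WT (differences are KO minus WT) with limma 3.58.1 in R 4.3.3, with no covariate and no filter, with two-sided p-values, a Benjamini-Hochberg adjustment over all 21789 probe sets and a threshold of 0.05. SEs and intervals are the moderated ones. The number of arrays limits the precision, and depth does not apply. The fit was also run on simulated arrays with known changes and independent noise. Those arrays held no sex or cell type difference, so that run does not bear on such effects here.

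The members and lists were chosen with earlier results of these data known. Named genes are the members and Jup, the 2 highest and 2 lowest by moderated t of each list, and the 3 most like Cish and Socs3; others are said to be named for a small count or as background. Il7r, Junb and Atp6v0a1 were named after their values were seen. Motifs and promoters came from RefSeq tables. Other settings tried were the removal of dim probe sets (below the 40th percentile), all rows, another prior, array weights, quantile normalization, median centring, the replicate block, averaging of probe sets per gene and each array left out.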

Additional observations from a re-analysis of the deposited data

How the results depend on the processing

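Under the 14 alternatives run for each gene, all 10 members kept their sign and 0 passed over all probe sets in limma. Cish ranged from -0.61 to -0.44 (adjusted p 0.0681 to 0.394) and Socs3 from -0.95 to -0.52 (adjusted p 0.112 to 0.541), the weakest with the mean of its probe sets. The members lower at an unadjusted p under 0.05 numbered 2 to 4 with an array left out, 4 without WT replicate 3, and the higher ones 0 to 1, 1 with a trended and robust prior and 2 with array weights. The mean difference of the 4 SOCS genes was -0.34, and -0.43 to -0.23 with an array left out. Over all probe sets, 11 were higher and 15 lower; with an array left out these were 1 to 41 and 3 to 41, highest without KO replicate 1. The counts were 17 and 23 with the trended and robust prior, 93 and 57 with array weights, and 17 higher with median centring. With all 35556 rows, which include those with several symbols and those unnamed here, 10 were higher and 59 lower. That count covers more rows than the main fit. The cause of these changes was not tested. Of the other pathway genes 19 had an unadjusted p under 0.05, and 12 to 26 with an array left out. Signs turned for Tyk2 (range -0.0063 without WT replicate 3 to 0.30 without WT replicate 1), Socs5 (-0.20 without KO replicate 3 to 0.022 without KO replicate 1) and Socs6 (0.0041 with the mean of its probe sets). Same-numbered KO and WT arrays deviated together with r of 0.104, -0.004 and 0.275, the last being the highest of any KO and WT array. WT replicate 1 correlated best with KO replicate 2 (0.134). These values are mixed and do not decide whether the numbers are pairs. The labels name no pairs, and the main fit used none. The replicate block gave 8 higher and 11 lower probe sets, and 3 members lower at an unadjusted p under 0.05. Fits without an array rest on 5 samples.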

Other observations

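Since Stat5a and Stat5b lie near Jup, the 25 protein-coding genes on each side of Jup were also read, a window chosen after the data were seen. Of the 45 measured, 20 were higher and 25 lower in KO, and the median of their log2 differences was -0.01. KO and WT did not overlap for 6 of them, 13.3% against 14.0% of all probe sets. Of these 6, 5 were above WT and 1 below, where 5.94% of all probe sets were above and 8.08% below. Among the 5 were Stat5a, Stat5b and the proton pump subunit gene Atp6v0a1 (0.59, limma, unadjusted p = 0.00580, adjusted p = 0.293). At an unadjusted p under 0.05 in limma, 2 of the 45 were higher in KO and 0 lower, against 4.48% and 4.73% of all probe sets.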
